A study of Mus musculus with 12 samples.

Results

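The Rab family of small GTPases was described in mouse dendritic cells from 2 tissues, with and without a targeted deletion of a receptor chain for transforming growth factor beta (TGF-beta). The members were all probe sets on the array whose annotation gives a single symbol made of Rab, a number and at most 1 letter and 1 digit. This rule found 51 probe sets for 51 genes, among 23332 probe sets and 14860 genes with a single-symbol probe set. Another 3 probe sets that carry a Rab symbol beside a different gene's symbol were left out, and Rab4a, Rab5b, Rab7 and Rab12 were not analysed here.

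The study hybridised RNA from C57BL/6 mice to 12 Affymetrix Mouse Exon 1.0 ST arrays, 3 for each of 4 groups. MLN Cre+ and MLN Cre- are CD11c+CD103+ dendritic cells of mesenteric lymph nodes, sorted by flow cytometry, each sample from 4 pooled mice. Spleen Cre+ and spleen Cre- are CD11c+ splenic dendritic cells isolated with magnetic beads, and the sources used here do not state how many mice made up a sample. Cre+ mice carried a deletion of TGFBR2, the ligand-binding chain of the TGF-beta receptor, targeted to dendritic cells, and Cre- animals served as controls. Neither the Cre driver nor the deleted exons are stated in the sources used here. For MLN Cre+ samples 1 label field names Cre- mice, whereas title, source and genotype say Cre+, and the last 3 were followed. Values are the authors' gene-level log2 expression values, so that a difference of 1 is a 2-fold change.

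Rab proteins switch between a GDP-bound form held in the cytosol and a GTP-bound form on membranes, where they recruit effectors that move, tether and fuse vesicles. Guanine nucleotide exchange factors (GEFs) load GTP, GTPase-activating proteins (GAPs) end the active state, and prenylation and escort factors attach Rabs to membranes. In dendritic cells this system carries antigen through phagosomes and endosomes, recycles MHC molecules and delivers cytokines and proteases.

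The label checks were made once for all results. Within groups, arrays correlated with r of at least 0.982. Tgfbr2 differed between Cre+ and Cre- by -0.12 in MLN (adjusted p = 0.524) and by -0.24 in spleen (adjusted p = 0.138, limma), and neither passed. Which of its probes lie in the deleted part is not known here, so these gene-level values cannot check the deletion. Itgae, which encodes CD103, lay between 7.55 and 8.20 in MLN and between 6.68 and 7.78 in spleen, and Itgax (CD11c) had no single-symbol probe set. Itgae is 1 of 5 measured markers of CD103+ or type 1 dendritic cells, which differed between tissues in both directions (given below). Spleen Cre+ arrays had 3.03 to 3.31 for the Y-linked gene Eif2s3y, against 9.81 to 10.07 in spleen Cre- arrays, so in spleen the effects of genotype and of sex cannot be told apart. The 4 X-linked Rabs (Rab9, Rab9b, Rab33a and Rab39b) were not called between genotypes there. In MLN, Eif2s3y lay between 6.27 and 8.20 in both genotypes. No label says that arrays came from separate animals, so p-values measure the spread between these samples.

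The upstream sequences of 4 genes that the results below turn on are shown first. Rab19 had the smallest p among Rabs in both genotype comparisons, Rab33b had genotype differences of opposite sign in the 2 tissues, and Rab5a and Rab31 are early endosomal Rabs with large tissue differences. Each run holds the 250 bases before a RefSeq transcript start, 5′ to 3′ on the gene's strand, in mouse build GRCm38.p6. Capitals mark matches to 4 short motifs, searched on both strands, that were picked with results of these data known: CAGAC (SMAD-type), GAGGAA (PU.1-type), CACGTG (E-box) and 2 copies of GAAA with any 2 bases between them (IRF-type, for interferon regulatory factors).
Rab19, chr6:39381103-39381352, + strand: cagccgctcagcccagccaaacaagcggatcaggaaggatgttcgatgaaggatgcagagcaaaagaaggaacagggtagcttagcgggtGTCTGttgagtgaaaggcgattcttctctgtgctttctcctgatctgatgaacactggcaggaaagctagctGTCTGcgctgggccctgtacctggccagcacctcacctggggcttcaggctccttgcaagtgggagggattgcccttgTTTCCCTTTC
Rab33b, chr3:51483716-51483965, + strand: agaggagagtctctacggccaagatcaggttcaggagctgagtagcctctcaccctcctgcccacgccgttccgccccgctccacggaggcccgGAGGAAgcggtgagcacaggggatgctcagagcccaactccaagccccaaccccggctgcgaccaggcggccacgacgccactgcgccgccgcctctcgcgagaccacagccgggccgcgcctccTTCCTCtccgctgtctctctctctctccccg
Rab5a, chr17:53478984-53479233, + strand: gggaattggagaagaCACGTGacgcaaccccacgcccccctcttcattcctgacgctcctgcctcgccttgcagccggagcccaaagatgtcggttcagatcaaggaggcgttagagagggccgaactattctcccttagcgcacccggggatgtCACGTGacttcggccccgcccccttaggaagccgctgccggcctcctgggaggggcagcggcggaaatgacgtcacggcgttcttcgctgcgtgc
Rab31, chr17:65772753-65773002, - strand: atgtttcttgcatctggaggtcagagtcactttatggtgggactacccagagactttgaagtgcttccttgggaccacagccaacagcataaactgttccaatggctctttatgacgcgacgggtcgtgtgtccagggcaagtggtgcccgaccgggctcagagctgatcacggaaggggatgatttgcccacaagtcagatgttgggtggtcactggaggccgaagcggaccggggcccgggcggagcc

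The Rab19 window held 2 CAGAC matches, 160 and 88 bases before the start, and 1 IRF-type match 10 bases before it. The Rab33b window held 2 GAGGAA matches and the Rab5a window 2 CACGTG matches, and the Rab31 window held none of the 4 motifs. Such matches are common: CAGAC occurred in 42.2% of 32851 RefSeq windows of the same length and in 39.6% of the 53 windows of 42 Rab genes. GAGGAA occurred in 23.3% of all windows and 13.2% of Rab windows, CACGTG in 6.02% and 9.43%, and the IRF-type motif in 2.98% and 1.89%. A match is a description of these letters only.

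Of the 51 probe sets, 42 (82.4%) had their highest group mean above 6.37, the 40th percentile of all group means, as did 67.5% of all probe sets. The other 9 were Rab3b, Rab3c, Rab9b, Rab13, Rab15, Rab25, Rab27b, Rab33a and Rab36. Of all 51, 11 had a mean over the 12 arrays above the 90th percentile of all probe sets. Brightness depends on the probes as well as on RNA, so values of different genes are not ranked against each other here. In bulk RNA, fewer cells of a type and less RNA per cell cannot be told apart.

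Among the bright probe sets, Rab8a, which delivers vesicles from the Golgi to the cell surface, had 11.48, 11.30 and 11.76 in MLN Cre+ arrays and 11.23, 11.21 and 11.44 in MLN Cre- arrays. It had 11.79, 11.91 and 11.86 in spleen Cre+ arrays and 11.63, 11.58 and 11.59 in spleen Cre- arrays. Rab21, an early endosomal Rab that handles integrins, lay between 10.18 and 10.60 in MLN and between 11.58 and 11.75 in spleen. Rab1a, which carries cargo from the endoplasmic reticulum (ER) to the Golgi, lay between 9.79 and 10.16 in MLN and between 11.93 and 12.01 in spleen. The 6 arrays of a tissue thus sat within a narrow band for each of these genes, and for Rab21 and Rab1a the bands of the tissues did not overlap on the deposited scale.

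At the dim end, Rab3c, a Rab of regulated secretion in neurons, lay between 3.99 and 4.20 in MLN and between 3.74 and 4.10 in spleen. Rab9b, a late endosomal Rab, lay between 4.94 and 5.46 in MLN and between 4.41 and 5.10 in spleen. Rab15, a Rab of endocytic recycling, lay between 5.15 and 5.32 in MLN and between 4.23 and 4.79 in spleen. These values are near the array's floor and say little about whether the genes are expressed. The SD within a group had a median of 0.116 over the 51 Rabs and 4 groups, against 0.139 over all probe sets.

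**Figure D1:**
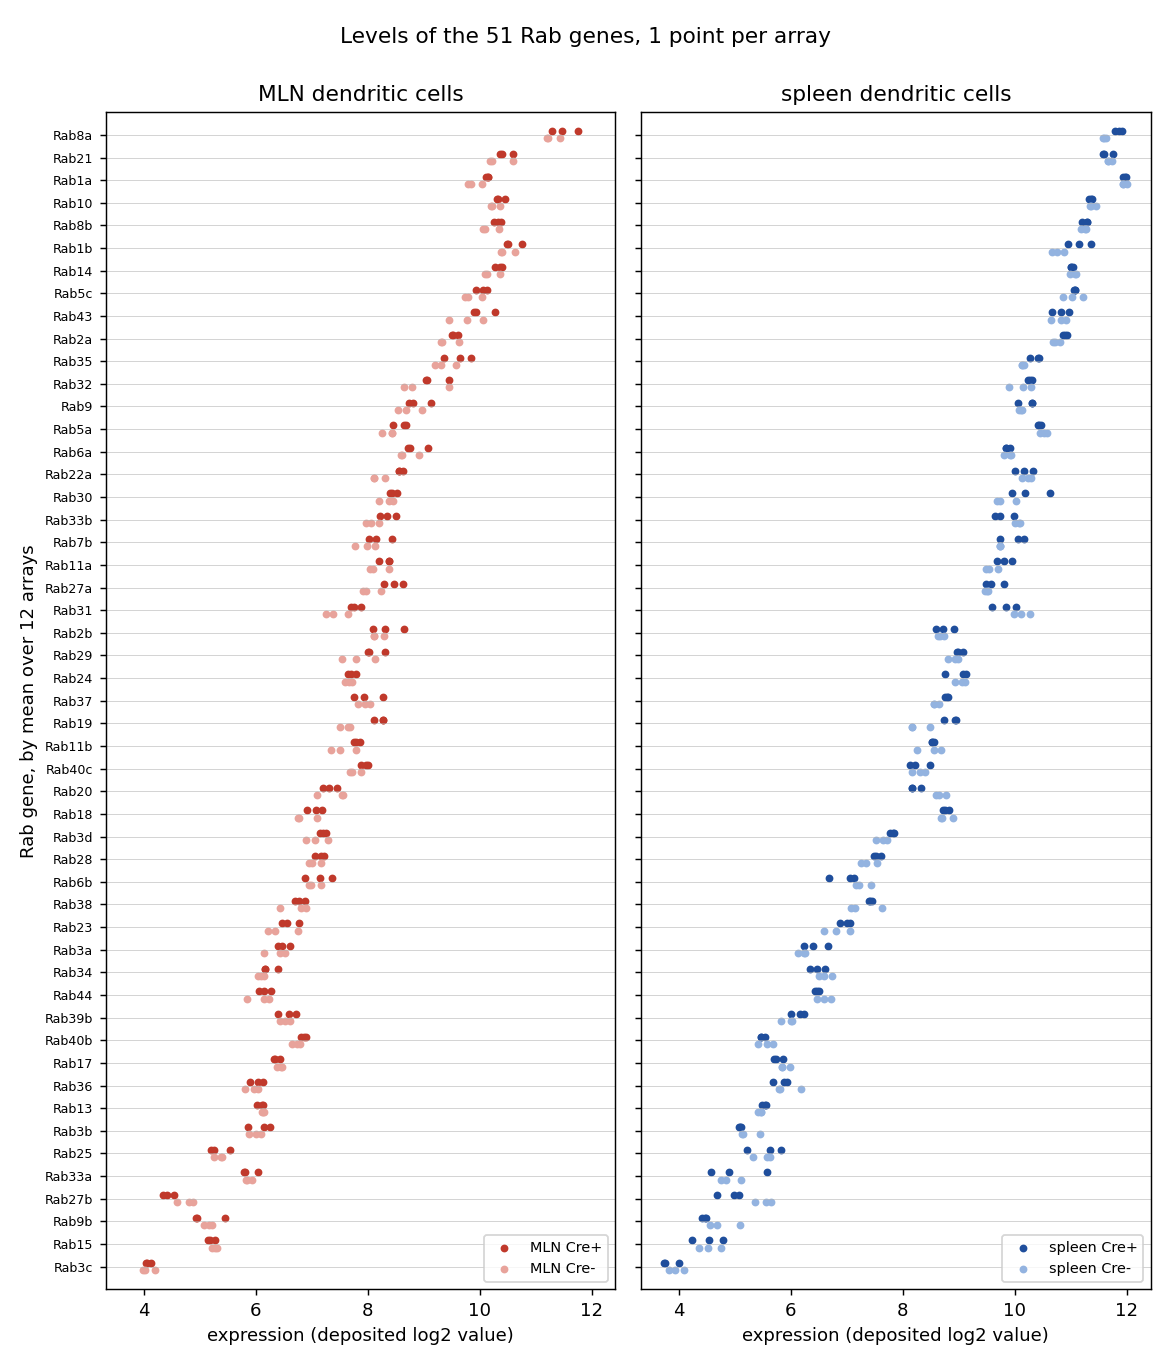
Deposited log2 values of the 51 Rab genes (rows, ordered by mean over 12 arrays), 1 point per array, in MLN (left; dark red Cre+, light red Cre-) and spleen (right; dark blue Cre+, light blue Cre-). Genotypes lie close together for most genes, and group means span 3.83 to 11.96.

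The first question was whether the Cre+ genotype went with other Rab levels. In spleen, 2 of 51 Rabs passed the test, Rab19 higher and Rab27b lower in Cre+ than in Cre- cells, which is 3.92% of Rabs against 2.17% of all 23332 probe sets. In MLN no Rab passed, where 0.0857% of all probe sets did (limma, adjusted p below 0.05 over all probe sets). At an unadjusted p below 0.05, 7 Rabs (13.7%) stood in spleen and 8 (15.7%) in MLN, against 16.2% and 11.9% of all probe sets. The median Rab difference was 0.02 in spleen, beside 0.01 over all probe sets.

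Rab19, a less studied Rab that has been placed at the Golgi, had differences of 0.62 in MLN and 0.60 in spleen. It had 8.28, 8.12 and 8.28 in MLN Cre+ arrays, against 7.65, 7.50 and 7.68 in MLN Cre- arrays. It had 8.73, 8.93 and 8.95 in spleen Cre+ arrays, against 8.17, 8.48 and 8.16 in spleen Cre- arrays. Every Cre+ array lay above every Cre- array of its tissue.

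In spleen the difference of Rab19 was 0.60 (SE 0.109, 95% interval 0.36 to 0.84), a 1.52-fold higher level with an adjusted p of 0.0224. In MLN it was 0.62 (SE 0.109, 95% interval 0.38 to 0.86), a 1.54-fold higher level whose adjusted p of 0.0856 missed the threshold. The mean of both differences, a comparison added after the values were seen, was 0.61 (SE 0.0768, adjusted p = 0.00756, limma). In that comparison 2 of 51 Rabs (3.92%) were called, Rab19 higher and Rab27b lower, against 1.26% of all probe sets. The spleen call was lost after quantile normalization (0.50, adjusted p = 0.0685) and after leaving out spleen Cre+ array 2 (adjusted p = 0.0911), Cre+ array 3 (0.0587), Cre- array 1 (0.0821) or Cre- array 3 (0.0521). The mean of both differences of Rab19 was called in all 12 fits that left out 1 array each.

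Rab27b, which with Rab27a docks secretory lysosome-related organelles and exosome-carrying compartments at the membrane, fell in spleen. It had 5.08, 4.69 and 4.99 in spleen Cre+ arrays, against 5.55, 5.36 and 5.64 in spleen Cre- arrays. Its difference was -0.60 (SE 0.124, 95% interval -0.87 to -0.32, adjusted p = 0.0374, limma). In MLN it had 4.54, 4.35 and 4.42 in Cre+ arrays, against 4.82, 4.59 and 4.88 in Cre- arrays, a difference of -0.33 (adjusted p = 0.381). The groups did not overlap in either tissue, but the probe set was dim throughout, between the 9.4th and 26.7th percentile of group means.

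The Rab27b call in spleen held in only 3 of 12 fits that left out 1 array, with differences of -0.68 to -0.49 and adjusted p-values of up to 0.136. It was also lost after quantile normalization (-0.52, adjusted p = 0.0647), and the filter on dim probe sets removed it. The mean of the MLN and spleen differences of Rab27b, at -0.46, was called too. That call likewise held in only 3 of 12 fits that left out 1 array. Rab27b is also a gene of platelets and megakaryocytes: the summed log2 level of 7 markers of those cells was 11.17 to 11.88 in spleen Cre+ arrays and 11.02 to 11.89 in spleen Cre- arrays, and 1 of the 7 fell. The part of such cells in the result was not tested.

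Other markers also moved with genotype in spleen, beside both Rab calls. Of 9 neutrophil markers 7 rose, with a summed log2 level of 13.24 to 14.34 in Cre+ arrays and 12.01 to 12.23 in Cre- arrays. Of 6 proliferation markers 4 rose, 1 of 6 B cell markers rose, and 2 of 11 macrophage and 2 of 5 plasmacytoid dendritic cell markers fell. None of the 5 conventional dendritic cell markers changed, with sums of 14.89 to 15.02 in Cre+ arrays and 14.90 to 14.92 in Cre- arrays. In MLN 1 of 11 macrophage markers rose, with sums of 10.87 to 11.08 in Cre+ arrays and 10.27 to 10.71 in Cre- arrays. No neutrophil, NK cell or B cell marker passed there, but the sums of each did not overlap. They were 9.41 to 9.58 in Cre+ and 9.08 to 9.12 in Cre- arrays for neutrophils, and 9.87 to 10.10 in Cre+ and 9.13 to 9.65 in Cre- arrays for NK cells. B cell sums were 13.92 to 14.02 in Cre+ and 13.78 to 13.90 in Cre- arrays. After quantile normalization the B cell sums overlapped, at 14.20 to 14.40 in Cre+ and 14.23 to 14.38 in Cre- arrays. On that scale the MLN neutrophil and NK cell sums still did not overlap. Plasmacytoid dendritic cell sums lay lower in MLN Cre+ (11.62 to 11.83) than in MLN Cre- arrays (11.85 to 11.98). Epithelial sums did too, at 8.86 to 8.89 against 8.94 to 9.07. Both overlapped as deposited. The part of these cells in the Rab differences was not tested.

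Among Rabs that did not pass in spleen, Rab20, a Rab of phagosome maturation, came next. It had 8.33, 8.17 and 8.16 in Cre+ arrays, against 8.60, 8.64 and 8.78 in Cre- arrays, a difference of -0.46 (adjusted p = 0.106). Rab1b, the close relative of Rab1a in ER-to-Golgi transport, had 10.95, 11.14 and 11.36 in Cre+ arrays, against 10.67, 10.75 and 10.88 in Cre- arrays, a difference of 0.38 (adjusted p = 0.152). Both genes showed groups that did not overlap.

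Rab30, a Golgi Rab, had 9.95, 10.18 and 10.63 in Cre+ arrays, against 9.68, 9.73 and 10.03 in Cre- arrays, with overlap and a difference of 0.43 (adjusted p = 0.206). Spleen Cre+ and Cre- arrays did not overlap for 15 Rabs (29.4%), 9 higher and 6 lower, where 21.8% of all probe sets did not overlap. Of all 23332 probe sets, 2890 were apart and higher and 2186 apart and lower. After quantile normalization Rab3b, Rab7b, Rab13 and Rab35 overlapped. Newly apart on that scale were Rab39b (higher) and Rab1a, Rab5a, Rab10 and Rab31 (lower).

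In MLN the 4 Rabs after Rab19 by p were Rab22a, Rab27a, Rab1a and Rab27b. Rab22a, a Rab of early and recycling endosomes that has been tied to MHC class I traffic in dendritic cells, had 8.57, 8.57 and 8.63 in Cre+ arrays, against 8.12, 8.11 and 8.32 in Cre- arrays. Its difference was 0.40 (SE 0.0992, adjusted p = 0.214). Rab27a, which in dendritic cells brings the NADPH oxidase to phagosomes, had 8.48, 8.64 and 8.29 in Cre+ arrays, against 7.97, 7.92 and 8.24 in Cre- arrays.

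The Rab27a difference was 0.43 (SE 0.123, adjusted p = 0.286), with every Cre+ array above every Cre- array. Rab1a had 10.16, 10.11 and 10.16 in MLN Cre+ arrays, against 9.85, 9.79 and 10.04 in MLN Cre- arrays, a difference of 0.25 (SE 0.0798, adjusted p = 0.338). After quantile normalization this was 0.10 with overlapping groups, and the difference of Rab27a was 0.31, also with overlap. MLN Cre+ and Cre- arrays did not overlap for 11 Rabs (21.6%), 10 higher and 1 lower, against 17.7% of all probe sets. Of all 23332 probe sets, 3121 were apart and higher and 1000 apart and lower. After quantile normalization only Rab19, Rab22a, Rab31 and Rab34 (higher) and Rab27b (lower) stayed apart.

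As deposited, 44 of 51 Rabs (86.3%) had a positive MLN difference, against 66.7% of all probe sets. The Rab median was 0.14, beside a median of 0.08 over all probe sets. After quantile normalization 31 of 51 Rabs were positive, where 10903 of 23332 probe sets were. The median was 0.02 beside -0.01 over all probe sets, so the count of positive values depends on how the arrays are scaled.

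**Figure D2:**
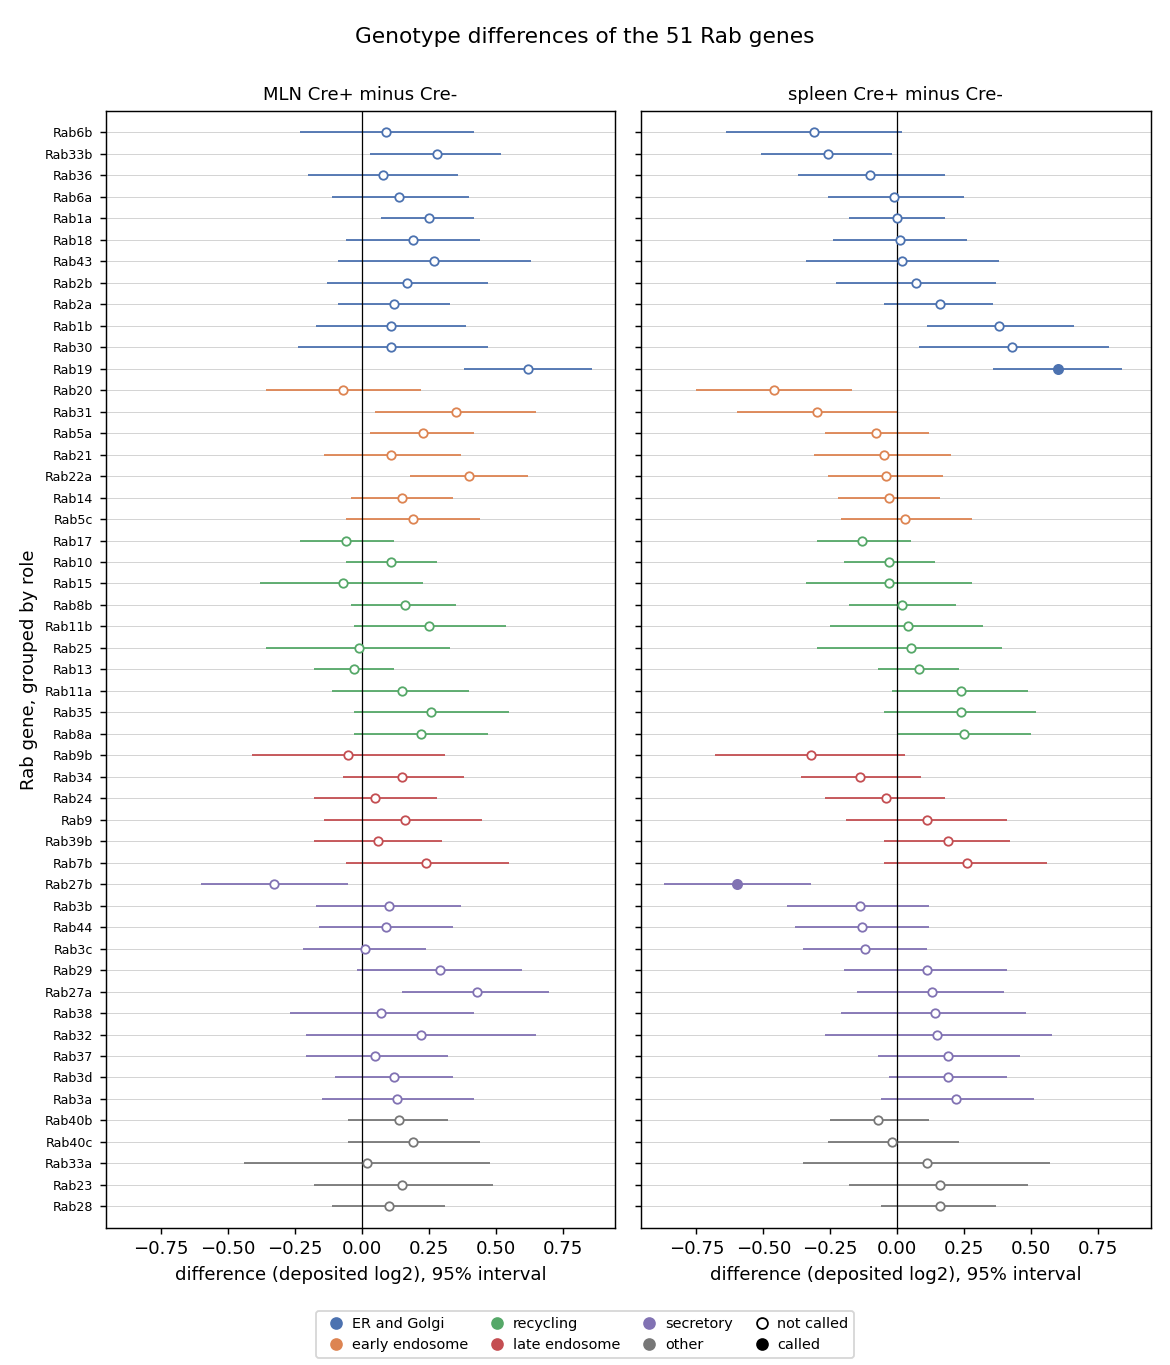
Cre+ minus Cre- differences on the deposited log2 scale in MLN (left) and spleen (right) for the 51 Rab genes, grouped by role, with 95% intervals; filled points passed the test (adjusted p below 0.05). The filled points are Rab19 at 0.60 and Rab27b at -0.60 in spleen, and MLN has none.

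Sorted by role, calls between genotypes were single genes. Of 12 ER and Golgi Rabs, Rab19 rose in spleen and the other 11 did not pass. Of 11 secretory and lysosome-related Rabs, Rab27b fell in spleen and 10 did not pass. None of 7 early endosomal, 10 recycling, 6 late endosomal and 5 other Rabs passed in either tissue. The early endosomal Rabs had differences of -0.46 to 0.03 in spleen, with a median of -0.05, and of -0.07 to 0.40 in MLN, with a median of 0.19. Medians over all probe sets were 0.01 in spleen and 0.08 in MLN. After quantile normalization the early endosomal medians were -0.12 in spleen and 0.05 in MLN, beside 0.01 and -0.01 over all probe sets. On that scale 5 of the 7 were positive in MLN. As deposited, 6 of these 7 were negative in spleen, where 52.9% of all probe sets were positive. In MLN all 12 ER and Golgi Rabs (0.08 to 0.62), 10 of 11 secretory Rabs and all 5 other Rabs had positive differences as deposited, where 66.7% of all probe sets did. After quantile normalization 7 of the 12, 8 of the 11 and 4 of the 5 were positive, and with each array shifted to a common median 12, 8 and 4 were.

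The difference between the tissues' genotype differences was tested directly. No Rab passed, with 4 at an unadjusted p below 0.05 (7.84%), where 12.2% of all probe sets had such a p and 0.163% were called (limma). All 7 early endosomal Rabs had a positive value, meaning a higher genotype difference in MLN than in spleen, where 59.6% of all probe sets did. Their median was 0.30, beside a median of 0.06 over all probe sets. After quantile normalization all 7 stayed positive, where 10899 of 23332 probe sets were, with a median of 0.19 beside -0.02. The 3 with the smallest p were Rab33b, Rab31 and Rab22a.

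Rab33b, a Golgi Rab that also binds the autophagy protein ATG16L1, had 8.35, 8.22 and 8.51 in MLN Cre+ arrays, against 8.07, 7.97 and 8.20 in MLN Cre- arrays. It had 9.65, 9.73 and 9.99 in spleen Cre+ arrays, against 10.07, 10 and 10.09 in spleen Cre- arrays. On the deposited scale Cre+ arrays were thus all above Cre- arrays in MLN and all below them in spleen. After quantile normalization the MLN difference was 0.13, against 0.28 as deposited, and the MLN groups overlapped. The MLN difference minus the spleen difference was 0.54 (SE 0.156, adjusted p = 0.210).

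Rab31, which moves cargo between the trans-Golgi network and endosomes, had 7.71, 7.75 and 7.89 in MLN Cre+ arrays, against 7.25, 7.38 and 7.66 in MLN Cre- arrays. It had 10.02, 9.85 and 9.59 in spleen Cre+ arrays, against 10.27, 10.11 and 9.99 in spleen Cre- arrays, with overlap there. The MLN difference minus the spleen difference was 0.65 (SE 0.193, adjusted p = 0.218), and for Rab22a it was 0.45 (SE 0.140, adjusted p = 0.245).

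**Figure D3:**
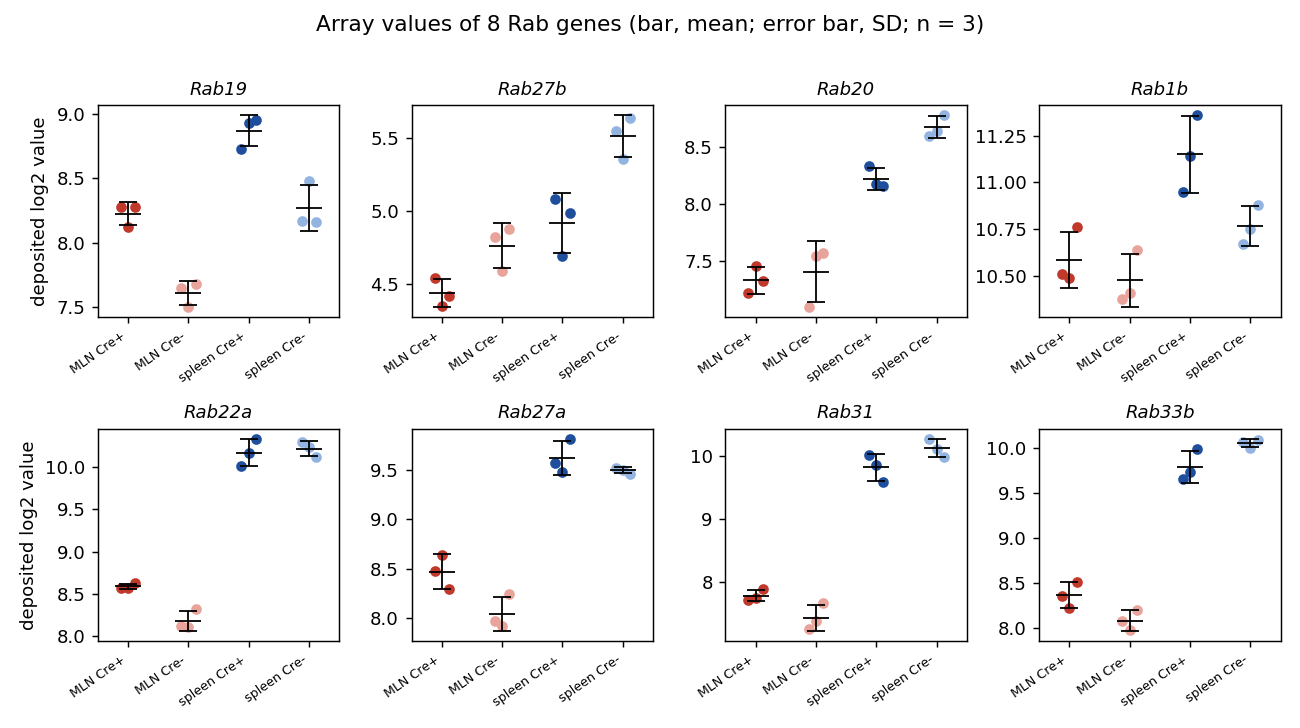
Deposited log2 values of 8 Rab genes in the 4 groups, 1 point per array, with mean (long bar) and SD (error bar), n = 3 each; the vertical axis differs between panels. Rab19 is higher in Cre+ in both tissues, Rab27b is lower in Cre+ in both, and Rab33b has opposite directions in MLN and spleen.

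The genes that act on Rabs were counted in the same way. In spleen 1 of 35 effectors fell and none of 28 GEFs, 34 GAPs and 7 prenylation and recycling factors passed. Of all probe sets 2.17% were called there. The one effector was Rilpl1, which binds Rab8 and Rab10 and acts at the cilium, with means of 7.01 ± 0.079 in Cre+ cells against 7.52 ± 0.092 in Cre- cells of the spleen (SD over 3 arrays each), a difference of -0.51 (adjusted p = 0.0172, limma). In MLN its means were 6.65 ± 0.116 in Cre+ and 6.52 ± 0.046 in Cre-, and the difference between tissues was 0.65 (adjusted p = 0.0831).

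Of the GEFs, Rab3ip, which activates Rab8, had a spleen difference of -0.31 (adjusted p = 0.0668), and its relative Rab3il1 one of -0.58 (adjusted p = 0.0754). Of the GAPs, Tbc1d8b had -0.40 (adjusted p = 0.153) and Tbc1d7 0.40 (adjusted p = 0.341). Of the prenylation and recycling list, Rabif, a chaperone of nucleotide-free Rabs, had 0.33 (adjusted p = 0.208) and Chml, an escort protein, 0.21 (adjusted p = 0.311). None of these 6 passed.

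In MLN no measured gene of these 4 lists passed, with 20 of 23332 probe sets called in all. The smallest p was that of Eea1, the tether that Rab5 recruits to early endosomes, with means of 7.87 ± 0.139 in MLN Cre+ and 7.43 ± 0.079 in MLN Cre- (SD, n = 3 each), a difference of 0.44 (adjusted p = 0.179). Rabep1, another Rab5 effector, had 0.26 (adjusted p = 0.312). The GEF Ccz1, which with a partner activates Rab7, had 0.29 and Als2cl, a Rab5-binding protein, -0.32. The GAPs Tbc1d23 and Rab3gap2 had 0.31 and 0.28, and the escort protein Chm and the prenylation enzyme subunit Rabggta had 0.23 and 0.11.

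The second question was how Rab levels differ between MLN and spleen dendritic cells of the same genotype. Deposited values of the tissues follow different distributions, with array medians of 6.74 to 6.89 in MLN and 7.03 to 7.08 in spleen and SDs over probe sets of 1.80 to 1.91 in MLN and 2.37 to 2.42 in spleen. Tissue values are therefore given after quantile normalization of all 12 arrays to 1 distribution, which sets aside any change shared by most genes. Tissue, sorting method and pooling cannot be told apart. A separate normalization run for each tissue is possible but not known. Y-linked genes differed too: both measured ones were higher in MLN in Cre+ cells and lower in MLN in Cre- cells. Their summed log2 level after quantile normalization was 7.70 to 8.91 in MLN Cre+ against 5.08 to 5.23 in spleen Cre+, and 6.95 to 9 in MLN Cre- against 9.79 to 9.98 in spleen Cre-. Sex composition and tissue thus cannot be told apart in either genotype, which touches the X-linked Rab33a, Rab39b and Rab9 below.

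On that scale 31 of 51 Rabs (60.8%) differed between MLN and spleen in Cre+ cells, where 58% of all probe sets did, and 32 (62.7%) in Cre- cells, where 64.1% of all probe sets did. In Cre+ cells 13 were higher in MLN (25.5%, against 30.6% of all probe sets) and 18 lower (35.3%, against 27.4%). In Cre- cells 12 were higher in MLN (23.5%, against 34.4%) and 20 lower (39.2%, against 29.7%). In both genotypes 30 Rabs were called, all with the same sign (58.8%, against 50.5% of all probe sets). The Cre+ and Cre- comparisons use different arrays but share the quantile normalization and the difference in scale between tissues.

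Many of these calls turned on the scaling. As deposited, where the median of all probe sets was -0.24 in Cre+ and -0.36 in Cre- cells, 8 Rabs were called higher in MLN (15.7%, against 26.5% of all probe sets) and 37 lower (72.5%, against 45.2%) in Cre+ cells. In Cre- cells 7 were called higher as deposited (13.7%, against 26.3%) and 37 lower (72.5%, against 49%). With each array shifted to a common median, 11 were higher (21.6%, against 34.6%) and 30 lower (58.8%, against 38.5%) in Cre+ cells, and 11 higher (21.6%, against 35.5%) and 29 lower (56.9%, against 39.7%) in Cre- cells. Under all 3 scalings and in both genotypes, 6 Rabs were called higher in MLN (11.8%, against 15.7% of all probe sets) and 13 lower (25.5%, against 18.4%). Of these 19, 14 were also called in every fit that left out 1 of the 12 arrays. The share of all probe sets that held in this way is not given here, so the 14 say nothing particular about Rabs.

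The 6 higher Rabs were Rab13, Rab17, Rab33a, Rab39b, Rab3b and Rab40b, and the 13 lower ones were Rab1a, Rab2a, Rab5a, Rab7b, Rab9, Rab11a, Rab18, Rab20, Rab22a, Rab24, Rab30, Rab31 and Rab33b. The probe sets of the 6 had means between the 22.7th and 38.9th percentile of all probe sets, and those of the 13 between the 65.3rd and 97.5th. Rab13, Rab33a and Rab3b were under the dim limit of 6.37 in every group. The 6 are thus dim and the 13 bright, and the part of the unequal value ranges of the tissues in this split was not tested.

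Role groups are small, and their counts stand beside called shares over all probe sets of 30.6% higher and 27.4% lower in Cre+ cells and 34.4% higher and 29.7% lower in Cre- cells. In the early endosomal group, 4 of 7 Rabs were lower in MLN in Cre+ cells and 5 in Cre- cells. Rab31 had 8.06, 8.07 and 8.08 in MLN Cre+ arrays, against 9.46, 9.30 and 9.08 in spleen Cre+ arrays, a difference of -1.21 (SE 0.116, adjusted p = 1.7e-05, limma). It had 7.66, 7.78 and 7.98 in MLN Cre- arrays, against 9.74, 9.65 and 9.48 in spleen Cre- arrays, a difference of -1.82 (SE 0.116, adjusted p = 1.09e-06). These were the largest falls of the family in both genotypes on this scale.

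Rab5a, which drives homotypic fusion of early endosomes, had 9.13, 9.15 and 8.74 in MLN Cre+ arrays, against 9.90, 9.86 and 9.84 in spleen Cre+ arrays, a difference of -0.86 (SE 0.108). Its Cre- arrays had 8.89, 9.03 and 8.86 in MLN, against 10, 10.08 and 9.93 in spleen, a difference of -1.08. Its paralogue Rab5c did not pass, with differences of 0.03 in Cre+ cells and -0.04 in Cre- cells, but was called lower in MLN as deposited, at -1.02 and -1.18.

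Rab22a had 9.03, 9.02 and 8.92 in MLN Cre+ arrays, against 9.46, 9.59 and 9.77 in spleen Cre+ arrays, a difference of -0.61 (SE 0.0873). In Cre- arrays it had 8.75, 8.68 and 8.73 in MLN, against 9.77, 9.76 and 9.60 in spleen, a difference of -0.99. Rab20 was lower by -0.34 in Cre+ cells, a call that held in 3 of 12 fits that left out 1 array, and by -0.54 in Cre- cells. Rab14, which acts between early endosomes and the Golgi, was higher in MLN on this scale (0.37 and 0.26) but lower as deposited (-0.67 and -0.86) and with a common median (-0.46 and -0.56).

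In the ER and Golgi group, 5 of 12 Rabs were lower in MLN in both genotypes, and 3 were higher in Cre+ and 2 in Cre- cells. Rab18, which acts at the ER and on lipid droplets, had 7.45, 7.26 and 6.96 in MLN Cre+ arrays, against 8.34, 8.30 and 8.41 in spleen Cre+ arrays, a difference of -1.13 (SE 0.127). The Cre- arrays had 6.98, 6.95 and 7.28 in MLN, against 8.45, 8.36 and 8.29 in spleen, a difference of -1.30. The spleen arrays of Rab18 lay within 0.2 of each other and above every MLN array.

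Rab1a had 10.67, 10.63 and 10.54 in MLN Cre+ arrays, against 11.44, 11.38 and 11.45 in spleen Cre+ arrays, a difference of -0.81 (SE 0.0634). In Cre- arrays it had 10.55, 10.46 and 10.53 in MLN, against 11.52, 11.49 and 11.47 in spleen, a difference of -0.98. Its paralogue Rab1b went the other way on this scale, by 0.46 in Cre+ and 0.81 in Cre- cells, but stood at -0.57 (called) and -0.29 (not called) as deposited.

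For Rab1b the MLN Cre+ arrays had 11, 10.99 and 11.13, against 10.37, 10.56 and 10.81 in spleen Cre+ arrays, and the MLN Cre- arrays had 11.05, 11.04 and 11.08, against 10.14, 10.25 and 10.34 in spleen Cre- arrays. Rab33b had 8.79, 8.61 and 8.79 in MLN Cre+ arrays, against 9.13, 9.20 and 9.42 in spleen Cre+ arrays, and 8.69, 8.51 and 8.60 in MLN Cre- arrays, against 9.55, 9.54 and 9.57 in spleen Cre- arrays. Its differences were -0.52 in Cre+ and -0.95 in Cre- cells. Rab30 had 8.89, 8.96 and 8.68 in MLN Cre+ arrays, against 9.40, 9.60 and 10.04 in spleen Cre+ arrays, with differences of -0.84 in Cre+ and -0.44 in Cre- cells, of which the Cre- call held in 8 of 12 fits that left out 1 array.

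Rab2a, which works in traffic between the Golgi and ER, was lower in MLN by -0.29 in Cre+ and -0.16 in Cre- cells, and the Cre- call held in 3 of 12 fits that left out 1 array. Its paralogue Rab2b was higher on this scale (0.38 and 0.41, the Cre+ call in 10 of 12 such fits) and lower as deposited (-0.40 and -0.50). Closely related Rabs share coding sequence, and whether their probes pick up each other's transcripts was not tested.

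In the late endosomal group, 4 of 6 Rabs were lower and 1 higher in MLN in both genotypes. Rab7b, which returns receptors from late endosomes to the trans-Golgi network and limits Toll-like receptor signalling, had 8.42, 8.54 and 8.70 in MLN Cre+ arrays, against 9.50, 9.59 and 9.21 in spleen Cre+ arrays, a difference of -0.88 (SE 0.111). For Cre- the arrays had 8.32, 8.53 and 8.51 in MLN, against 9.22, 9.29 and 9.24 in spleen, a difference of -0.79. Rab24, a Rab of autophagy, was lower by -0.54 and -0.51, and Rab9, which sorts mannose 6-phosphate receptors from late endosomes, by -0.32 and -0.27, calls that held in 8 of 12 (Cre+) and 5 of 12 (Cre-) fits that left out 1 array. Rab34 was lower by -0.28 in Cre+ cells, a call that held in 9 of 12 such fits, and by -0.54 in Cre- cells. With a common median it was called in neither genotype (-0.01 and -0.22). As deposited it was called only in Cre- cells (-0.51, against -0.22 in Cre+ cells). Rab39b was higher by 0.41 and 0.56.

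In the recycling group, 4 of 10 Rabs were higher and 2 lower in MLN in both genotypes. Rab8a had 11.97, 11.77 and 12.03 in MLN Cre+ arrays, against 11.25, 11.36 and 11.32 in spleen Cre+ arrays, a difference of 0.61 (SE 0.0782), and 0.71 in Cre- cells. As deposited Rab8a was lower in MLN (-0.34 and -0.31), so its direction depends on the scale, as does that of Rab35 (0.30 and 0.35 here, the Cre+ call in 9 of 12 fits that left out 1 array, and -0.75 and -0.77 as deposited). Rab17 and Rab13, Rabs of polarised delivery in epithelia, kept their direction, at 0.47 and 0.50 for Rab17 and 0.33 and 0.48 for Rab13. Rab11a, the main Rab of recycling endosomes, was lower by -0.59 and -0.41 and kept its direction. Rab25, its epithelial relative, was lower by -0.58 and -0.49, but was called in neither genotype as deposited (-0.23 and -0.16) and stood at 0.13 in Cre- cells with a common median.

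In the secretory group, 3 of 11 Rabs were lower in Cre+ and 4 in Cre- cells, and Rab3b was higher in both. Rab27b had 4.25, 4.06 and 4.11 in MLN Cre+ arrays, against 5.27, 4.94 and 5.17 in spleen Cre+ arrays, a difference of -0.99 (SE 0.116). Among Cre- arrays it had 4.57, 4.35 and 4.66 in MLN, against 5.71, 5.50 and 5.75 in spleen, a difference of -1.13. With a common median its Cre+ difference was -0.26 and no longer called. The 7 platelet and megakaryocyte markers summed to 9.63 to 9.67 in MLN Cre+ against 10.78 to 11.42 in spleen Cre+, with 5 lower, and to 9.55 to 9.76 in MLN Cre- against 10.66 to 11.44 in spleen Cre-, with 3 lower. Rab27a did not pass in Cre+ cells (-0.24, adjusted p = 0.145) and was lower in Cre- cells (-0.49, adjusted p = 0.00936). Rab3b, a Rab of regulated secretion, had 5.73, 6.08 and 6.17 in MLN Cre+ arrays, against 5.28, 5.31 and 5.28 in spleen Cre+ arrays, with differences of 0.70 and 0.50.

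Among the other Rabs, Rab40b had the largest rise of the family in both genotypes. Rab40b carries a SOCS box, by which it takes part in a ubiquitin ligase. It had 7.03, 7.05 and 6.84 in MLN Cre+ arrays, against 5.68, 5.62 and 5.61 in spleen Cre+ arrays, a difference of 1.34 (SE 0.0896, adjusted p = 2.4e-06, limma), which is 2.52-fold. In Cre- arrays it had 6.79, 7 and 6.84 in MLN, against 5.72, 5.78 and 5.56 in spleen, a difference of 1.19, or 2.28-fold. The differences were alike on the deposited scale, at 1.38 and 1.17.

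Rab33a was higher by 0.54 in Cre+ and 0.66 in Cre- cells, but its Cre+ call held in 9 of 12 fits that left out 1 array. One spleen Cre+ array had 5.69, beside 5.10 and 4.84 in the others, and the MLN Cre+ arrays had 5.68, 5.66 and 5.92.

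**Figure D4:**
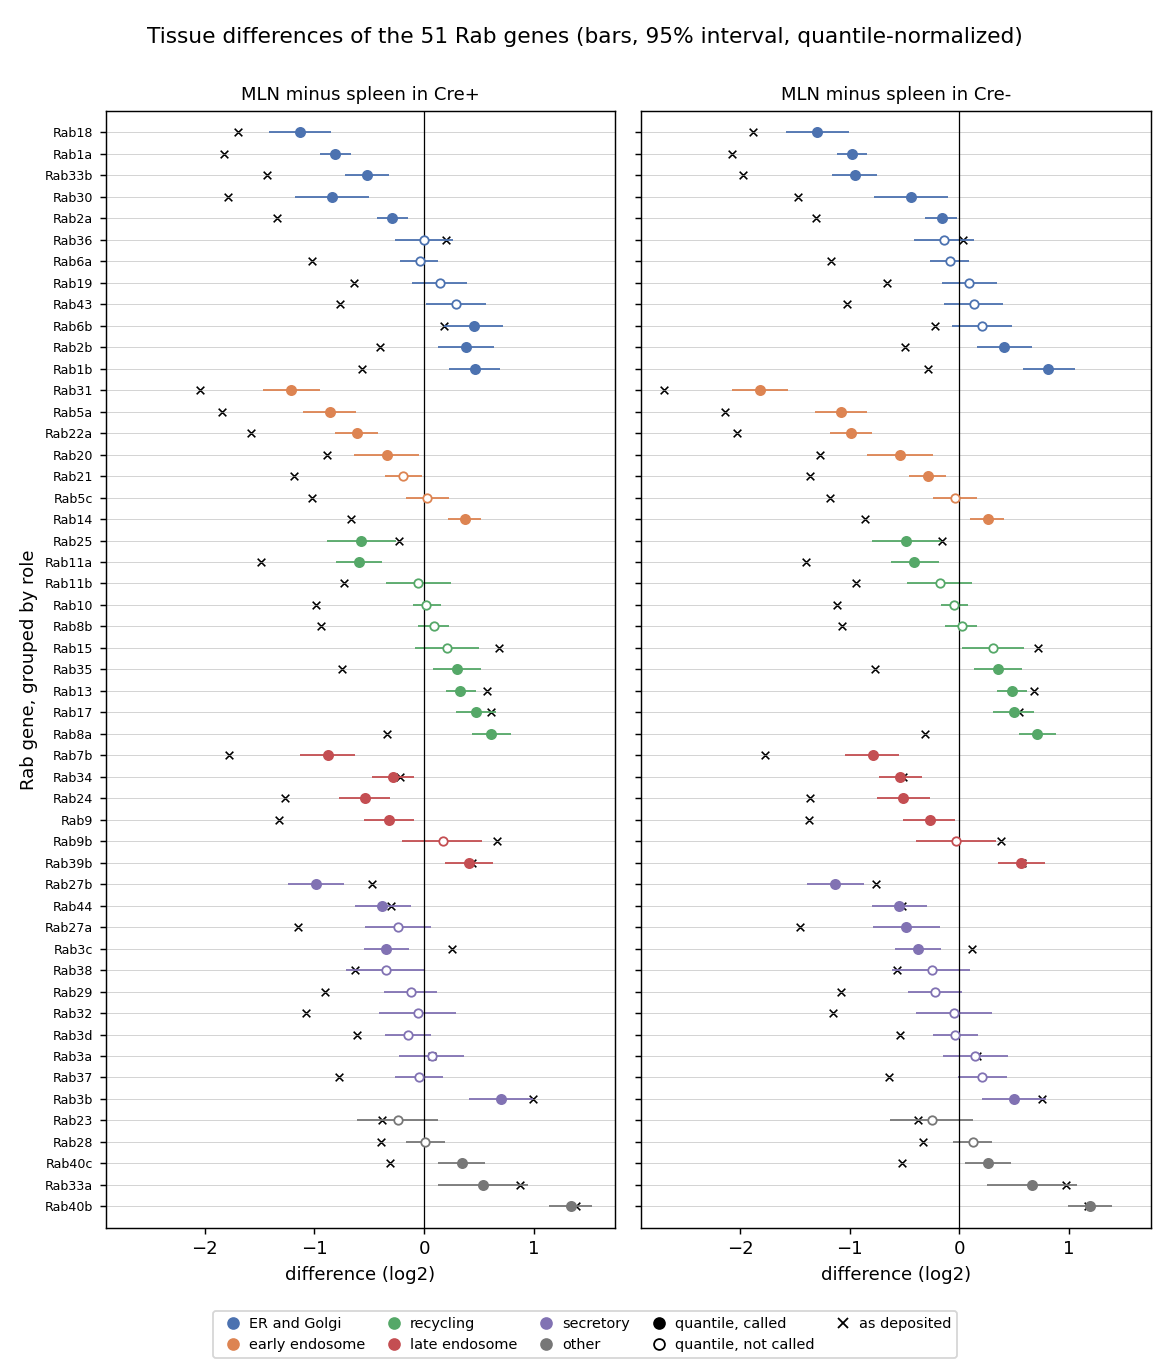
MLN minus spleen differences (log2) of the 51 Rab genes in Cre+ (left) and Cre- (right) cells, grouped by role; circles with 95% intervals are quantile-normalized values, filled where adjusted p is below 0.05, and crosses are differences as deposited. Most crosses lie left of their circles, and Rab40b lies furthest to the right at 1.34 and 1.19.

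The lists of regulators and effectors are read against the shares over all probe sets given above, of which 30.6% were called higher and 27.4% lower in Cre+ cells and 34.4% higher and 29.7% lower in Cre- cells. As deposited the shares were 26.5% higher and 45.2% lower in Cre+ cells and 26.3% higher and 49% lower in Cre- cells. Called shares near those of the same scale say nothing particular about a list. Of 28 GEFs, 13 were higher and 5 lower in MLN in Cre+ cells and 11 higher and 6 lower in Cre- cells, but 2 were higher and 20 lower (Cre+) and 2 higher and 23 lower (Cre-) as deposited. Rabgef1, the exchange factor of Rab5, was lower in MLN by -0.67 in Cre+ and -0.83 in Cre- cells, and by -1.47 and -1.76 as deposited. Als2cl was higher by 1.09 and 1.46, and by 0.74 and 0.83 as deposited. Rab3il1 was lower by -0.64 and -1.39. Rgp1, part of the exchange factor of Rab6, was higher by 0.90 and 0.82 on this scale, and stood at 0.18 and -0.05 as deposited.

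Of 34 GAPs, 12 were higher and 8 lower in Cre+ cells and 10 higher and 11 lower in Cre- cells, against 2 higher and 21 lower (Cre+) and 2 higher and 26 lower (Cre-) as deposited. Usp6nl, a GAP of Rab5 and Rab43, was lower by -0.83 and -0.99 and Evi5 by -0.71 and -0.98, and both kept their direction as deposited. Tbc1d10c was higher by 1.12 and 1.27, and by 0.18 and 0.23 as deposited. Rabgap1l was higher by 0.80 and 0.48 on this scale and at -0.25 and -0.66 as deposited.

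Of 7 prenylation and recycling factors, 1 was higher and 4 lower in Cre+ cells and 3 higher and 3 lower in Cre- cells, whereas all 7 were lower as deposited. Chm was lower by -0.57 and -0.70, Gdi2, which extracts GDP-bound Rabs from membranes, by -0.55 and -0.41, and the prenylation enzyme subunit Rabggtb by -0.93 and -0.99. The partner subunit Rabggta was higher by 0.44 and 0.53 on this scale and lower, at -0.37 and -0.41, as deposited.

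Of 35 effectors, 9 were higher and 11 lower in Cre+ cells and 11 higher and 12 lower in Cre- cells. As deposited, 6 were higher and 23 lower in Cre+ cells and 7 higher and 22 lower in Cre- cells. Rilpl2, a relative of Rilpl1, was lower in MLN by -2.09 in Cre+ and -2.61 in Cre- cells, the largest fall in these lists. Its means were 8.36 ± 0.345 in MLN Cre+ against 10.44 ± 0.179 in spleen Cre+ and 8.13 ± 0.214 in MLN Cre- against 10.74 ± 0.027 in spleen Cre- (SD, n = 3 each). Ehbp1, which links Rab8 and Rab10 to actin, was lower by -0.85 and -1. Osbpl1a, a Rab7 effector, was lower by -1.05 and -1.20. Vps39, a subunit of the HOPS tether of late endosomes, was higher by 1.23 and 1.19 on this scale, and stood at 0.20 and 0.09 as deposited.

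Markers of other cells also differed between tissues beside these results. All 9 neutrophil markers were lower in MLN, with summed log2 levels after quantile normalization of 9.44 to 9.63 in MLN Cre+ against 12.70 to 13.81 in spleen Cre+ and 9.05 to 9.09 in MLN Cre- against 11.57 to 11.84 in spleen Cre-. Of 11 macrophage markers 10 were lower in both genotypes, with sums of 11.18 to 11.42 in MLN Cre+ against 13.05 to 13.14 in spleen Cre+ and 10.56 to 10.98 in MLN Cre- against 13.33 to 13.63 in spleen Cre-. T cell markers were higher in MLN, 7 of 7 in Cre+ and 6 of 7 in Cre- cells. Lower in MLN were 3 (Cre+) and 4 (Cre-) of 4 NK cell markers, 4 and 3 of 5 plasmacytoid dendritic cell markers, 4 and 3 of 5 epithelial markers, and 5 and 1 of 6 proliferation markers. Higher in MLN were 1 plasmacytoid dendritic cell marker in Cre+ cells and 1 epithelial marker in each genotype. Of 5 conventional dendritic cell markers 2 were higher and 2 lower in Cre+, and 1 higher and 2 lower in Cre- cells. They summed to 14.47 to 14.48 in MLN Cre+ against 14.56 to 14.67 in spleen Cre+, and to 14.46 to 14.52 in MLN Cre- against 14.56 to 14.59 in spleen Cre-. Of the 5 markers of CD103+ or type 1 dendritic cells, Itgae among them, 1 was higher and 2 lower in MLN in Cre+ cells. In Cre- cells 1 was higher and 1 lower. Their sums were 12.35 to 12.65 in MLN Cre+ against 12.72 to 12.88 in spleen Cre+. For Cre- the sums were 12.24 to 12.46 in MLN against 12.92 to 12.95 in spleen. The part of these cells in the tissue differences of Rabs was not tested.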

How the data were processed

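Each of 12 RNA samples was hybridised to its own array, and titles gave the 4 groups of 3. Per the labels, the authors made gene-level values with RMA, robust multi-array averaging, using GeneSpring. Their range shows that the deposited values are log2. Neither version nor probe annotation is stated in the sources used here. Gene symbols came from the platform annotation, in which 14996 of 23332 probe sets had 1 symbol, 1019 several and 7317 none; all 51 Rab symbols matched RefSeq's gene table. All probe sets were fitted with limma 3.58.1 in R 4.3.3, as 4 group means with eBayes, two-sided, and Benjamini-Hochberg adjustment over 23332 probe sets. The Cre+ and Cre- comparisons and the difference between tissues used the deposited log2 values, and the MLN and spleen comparisons used values quantile-normalized over 12 arrays. The procedure was tested on simulated data. The number of arrays limits the precision. The members, role groups, pathway and marker lists and tests were chosen with earlier results of these data known. Array values were given for up to 10 called Rabs per comparison by size, the 3 brightest and 3 dimmest probe sets, and the 5 smallest p-values per genotype comparison. Of pathway lists, called genes or the 2 smallest p-values (3 between tissues) were named; a gene with several probe sets was read from the brightest. Alternatives were other scalings, a filter on dim probe sets, single-symbol probe sets, another variance prior, array weights, 6 arrays alone, a replicate block and leaving out each array. Proteins were not analysed here.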

Additional observations from a re-analysis of the deposited data

Results flagged for a closer look

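Rab33b was singled out because its genotype differences ran in opposite directions in the 2 tissues with no overlap between arrays on the deposited scale. All 3 MLN Cre+ arrays lay above all 3 MLN Cre- arrays (difference 0.28), and all 3 spleen Cre+ arrays lay below all 3 spleen Cre- arrays (difference -0.26). The MLN difference minus the spleen difference was 0.54 (SE 0.156), and its test did not pass over all probe sets (adjusted p = 0.210, limma). With array weights it passed, at 0.56 (adjusted p = 0.0335). After quantile normalization the MLN difference was 0.13 with overlapping groups, the spleen difference -0.30, and the MLN difference minus the spleen difference 0.43 (adjusted p = 0.222).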

How the results depend on the processing

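The counts of Rabs called between tissues stayed within 1.5 times under all alternatives run, and leaving out 1 array gave 26 to 32 in Cre+ and 28 to 33 in Cre- cells. The spleen genotype count of 2 became 0 after quantile normalization, 1 (Rab19) with the filter on dim probe sets, 7 with array weights (Rab19, Rab1b, Rab20, Rab27b, Rab33b, Rab6b and Rab7b) and 0 with the 6 spleen arrays alone, and it ranged from 0 to 2 when 1 array was left out. The MLN count of 0 became 1 (Rab19) with the filter on dim probe sets (adjusted p = 0.0463) and with single-symbol probe sets (0.0351), which test fewer probe sets, and 5 with array weights (Rab19, Rab1a, Rab22a, Rab27a and Rab31). The count of 0 for the difference between tissues became 4 with array weights (Rab22a, Rab27a, Rab31 and Rab33b). Those weights gave spleen Cre+ array 2 a weight of 6.04, against 0.405 to 2.75 for the others, and the cause of the moves was not tested. The share of all probe sets called with array weights is not given here. The weighted counts therefore cannot be read as results about Rabs. Rab20 was called in spleen, at -0.46 (adjusted p = 0.0470), without MLN Cre- array 1. MLN minus spleen differences turned direction as deposited in Cre+ cells for Rab14 (-0.67), Rab1b (-0.57), Rab2b (-0.40), Rab35 (-0.75), Rab3c (0.25), Rab40c (-0.31) and Rab8a (-0.34), and with a common median at -0.46, -0.35, -0.18, -0.53, 0.46, -0.10 and -0.12 for the same genes. In Cre- cells they turned as deposited for Rab14 (-0.86), Rab1b (-0.29), Rab2b (-0.50), Rab35 (-0.77), Rab3c (0.11), Rab40c (-0.52) and Rab8a (-0.31), and with a common median for Rab14 (-0.56), Rab25 (0.13), Rab2b (-0.21), Rab35 (-0.48), Rab3c (0.41), Rab40c (-0.23) and Rab8a (-0.01). Deviations of same-numbered Cre+ and Cre- arrays had r of -0.077, -0.003 and -0.142 in spleen and 0.204, 0.001 and 0.31 in MLN. Differently numbered arrays had r of -0.048 to 0.134 in spleen and -0.294 to 0.139 in MLN. Arrays of the same number thus did not deviate together in spleen. In MLN those numbered 1 and those numbered 3 did, so pairing there is not settled. With a replicate block, the spleen, MLN and difference tests gave counts of 2, 0 and 0. The Cre+ and Cre- tissue tests gave 31 and 30 with it. Probe sets near the array's floor, such as Rab27b, limit what can be read from them.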
